A study of Mus musculus with 6 samples.

Results

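Mast cells are tissue-resident immune cells that store proteases in cytoplasmic granules, and the genes described here encode those proteases and 2 receptors of the cells. They are 9 of the 39179 genes in the deposited expression table: the chymase-family genes Mcpt1, Mcpt2, Mcpt4 and Cma1, the tryptase genes Tpsb2 and Tpsab1, the carboxypeptidase gene Cpa3, and the receptor genes Fcer1a and Kit. They were taken by gene symbol, and the members were selected on their RPKM values in these 6 libraries, with the values of both groups in view. The differences between the groups are therefore a description and carry no test. The 6 libraries come from the pylorus, where the stomach opens into the duodenum, of mice on a mixed C57BL/6 and 129 background. The 3 Sox2 KO samples came from mice with floxed Sox2 alleles and a tamoxifen-activated Cre (CreER) at the ubiquitously expressed Rosa26 locus, so that deletion is not limited to the epithelium. The 3 Sox2 WT samples came from mice with the same floxed alleles and no Cre. Both groups received tamoxifen at 8 weeks of age, with stomachs taken 2 weeks later, at 10 weeks by the series text; the age label reads 8 weeks. The muscle layer was peeled off before RNA was extracted, which left epithelium and mesenchyme. The labels do not say whether each library is 1 animal, so any p-value measures the spread between these libraries.

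Mast cells of the mouse fall into 2 broad types. Mucosal mast cells lie in and under the epithelium, expand in type 2 immune responses such as worm infection, and make the chymases encoded by Mcpt1 and Mcpt2. Connective tissue mast cells lie deeper, around vessels and in submucosa and muscle, and make Mcpt4, Cma1 and the tryptase Tpsb2; Cpa3 is used as a marker of mast cells in general, although its level differs between types. Granule proteases are stored with proteoglycan and can be released when IgE bound to its receptor, whose alpha chain is Fcer1a, is crosslinked. Kit is the receptor for stem cell factor, on which mast cell survival depends.

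The libraries held between 21923203 and 32455361 reads in genes, recovered from the deposited RPKM (reads per unit of gene length and of library size), and the median log2 fold change over all genes tested was 0.02. Values of single libraries are given in the order of replicates 1, 2 and 3 throughout. Sox2 was at 11.1, 9.03 and 10.9 RPKM in the Sox2 WT libraries and at 0.342, 0.210 and 0.420 RPKM in the Sox2 KO libraries. Replicates 2 and 3 of Sox2 WT had 36.3 and 33.3 RPKM of Xist, the RNA that coats the silenced X, and Ddx3y, on the Y, was listed at 0 there. The other 4 libraries had at most 0.0124 RPKM of Xist and at least 10.3 RPKM of Ddx3y. Sex therefore differs along with genotype. Values against Sox2 WT replicate 1, the 1 Sox2 WT library with Y-linked expression, are given for each of the 9 genes. They are the Sox2 KO mean minus that library on the log2(RPKM + 0.5) scale. A sex covariate in the fit gives the same difference, because its group term compares the Sox2 KO libraries with that library alone.

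Mast cell transcripts were present in every library at low levels. All 9 genes were above 0 in all 6 libraries and all 9 passed the filter of a mean of at least 0.5 RPKM. Mcpt2 had the highest level of the 9 in each of the 6 libraries, with a mean of 8.40 ± 3.33 RPKM (SD over the 6 libraries). Tpsab1 (4.88 ± 2.00 RPKM), Tpsb2 (4.59 ± 1.19), Cpa3 (3.63 ± 0.789), Mcpt4 (3.25 ± 0.740), Mcpt1 (3.09 ± 2.87), Kit (2.37 ± 0.705) and Cma1 (1.78 ± 0.565) followed, and Fcer1a was at 0.646 ± 0.241 RPKM. Within that order Mcpt2 was above Tpsab1, and Cma1 above Fcer1a, in 6 of 6 libraries. Tpsb2 was above Cpa3 in 5 of 6, and each other gene was above the next in 4 of 6, so neighbours from Tpsab1 to Cma1 were not separated beyond their spread. Behind the lowest values stood 12 reads, for Fcer1a in 2 libraries and for Mcpt1 in 1.

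**Figure D1:**
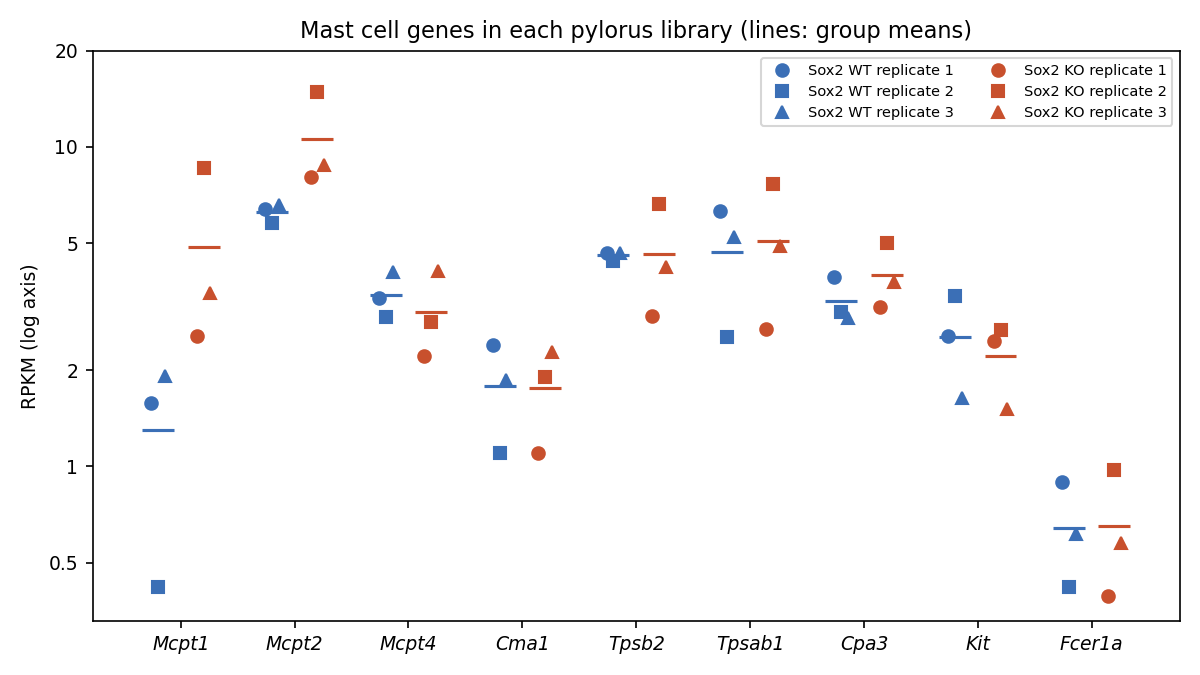
RPKM on a log axis of the 9 mast cell genes in each library, with 3 Sox2 WT libraries in blue, 3 Sox2 KO libraries in red and lines at the group means. The red points lie above all blue points for Mcpt1 and Mcpt2; for the other 7 genes the groups overlap.

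The 2 mucosal chymase genes were higher in each Sox2 KO library than in any Sox2 WT library, while the genes of connective tissue mast cells overlapped between the groups. Mcpt1 was at 1.58, 0.418 and 1.92 RPKM in the Sox2 WT libraries and at 2.56, 8.58 and 3.49 RPKM in the Sox2 KO libraries. Its Sox2 KO mean of 4.87 ± 3.24 RPKM was 3.74 times that of Sox2 WT, 1.30 ± 0.785 RPKM (SD, n = 3 each), and its log2 fold change was 1.53 (SE 0.485). Sox2 KO replicate 2 stood out on the high side and Sox2 WT replicate 2 on the low side. These values rest on 39, 12 and 50 reads in Sox2 WT and 78, 255 and 121 reads in Sox2 KO. The closest pair across the groups, Sox2 WT replicate 3 and Sox2 KO replicate 1, had exact 95% Poisson intervals of 1.42 to 2.53 and 2.02 to 3.19 RPKM, which overlap and cover counting error only.

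Mcpt2 was at 6.39, 5.80 and 6.57 RPKM in the Sox2 WT libraries and at 8.06, 14.8 and 8.79 RPKM in the Sox2 KO libraries. The 3 Sox2 WT libraries lay close together and all 3 Sox2 KO libraries lay above them, again with replicate 2 the highest. Its means were 6.25 ± 0.405 and 10.6 ± 3.71 RPKM (SD, n = 3 each), a ratio of 1.69, with a log2 fold change of 0.66 (SE 0.217). Mcpt2 was the more abundant of the 2 mucosal genes and Mcpt1 the one with the larger log2 fold change. The level of Mcpt1 was 0.247, 0.0722 and 0.291 of that of Mcpt2 in the Sox2 WT libraries, and 0.317, 0.579 and 0.397 in the Sox2 KO libraries. The 2 groups did not overlap in this ratio either, although Sox2 WT replicate 3 and Sox2 KO replicate 1 were close.

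Against Sox2 WT replicate 1 alone, the Sox2 KO mean was higher by 1.21 for Mcpt1 and 0.63 for Mcpt2 on the log2(RPKM + 0.5) scale. Without Sox2 KO replicate 2 the log2 fold change of Mcpt1 was 1.07 and that of Mcpt2 was 0.40; without Sox2 WT replicate 2 that of Mcpt1 was 1.10. Neither gene passed a threshold of 0.05 on the adjusted p in limma's fit across 14045 genes, in which 0.0142% of all genes passed upwards, 0.0142% downwards and 0.0285% in either direction. Of the 9 mast cell genes, 0 passed in either direction. At an unadjusted p under 0.05 stood 2 of the 9, Mcpt1 and Mcpt2, beside 3.15% of all genes tested; limma's voom on the recovered reads also gave 0 of 9 and 2 of 9, and with sex as a covariate both counts were 0. Values of the 3 Sox2 KO libraries lay above those of the 3 Sox2 WT libraries in 2 of the 9 and in 4.09% of all genes tested, and below them in 0 of the 9 and in 2.99% of all genes; 7.08% of all genes did not overlap in one direction or the other.

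Mcpt4, a chymase of connective tissue mast cells, was at 3.36, 2.93 and 4.06 RPKM in the Sox2 WT libraries and at 2.21, 2.83 and 4.10 RPKM in the Sox2 KO libraries. Its values overlapped, with Sox2 KO replicate 1 the lowest and Sox2 KO replicate 3 the highest (log2 fold change -0.18, SE 0.210; -0.16 against Sox2 WT replicate 1 alone). Cma1, the other chymase of that type, was at 2.40, 1.10 and 1.87 RPKM in Sox2 WT and at 1.10, 1.90 and 2.29 RPKM in Sox2 KO. Its group means of 1.79 ± 0.654 and 1.76 ± 0.607 RPKM (SD, n = 3 each) gave a log2 fold change of -0.01 (SE 0.279). Against Sox2 WT replicate 1, the Sox2 WT library with the highest Cma1, the difference was -0.40.

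Tpsb2, which encodes a heparin-bound tryptase of connective tissue mast cells, was at 4.66, 4.41 and 4.66 RPKM in the Sox2 WT libraries and at 2.96, 6.65 and 4.22 RPKM in the Sox2 KO libraries. The Sox2 KO libraries thus lay on both sides of a narrow Sox2 WT range (log2 fold change -0.05, SE 0.244), and the difference from Sox2 WT replicate 1 was -0.08. Tpsab1, the second tryptase gene, has a known splice site change in C57BL/6 mice, and RefSeq lists it as a transcribed pseudogene in that strain while GENCODE lists it as protein coding. It was at 6.31, 2.55 and 5.23 RPKM in Sox2 WT and at 2.69, 7.63 and 4.90 RPKM in Sox2 KO (log2 fold change 0.08, SE 0.400). Its sign turned against Sox2 WT replicate 1 alone, to -0.39. The ratio of Tpsab1 to Tpsb2 was 1.35, 0.578 and 1.12 in the Sox2 WT libraries and 0.908, 1.15 and 1.16 in the Sox2 KO libraries, and overlapped between the groups.

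Cpa3, the carboxypeptidase gene of mast cell granules, was at 3.91, 3.04 and 2.91 RPKM in Sox2 WT and at 3.14, 5.01 and 3.78 RPKM in the Sox2 KO libraries. Its groups overlapped, with Sox2 KO replicate 2 the highest, and its log2 fold change was 0.23 (SE 0.182); against Sox2 WT replicate 1 alone it was 0.00. Fcer1a was at 0.893, 0.419 and 0.614 RPKM in Sox2 WT and at 0.394, 0.977 and 0.578 RPKM in Sox2 KO, from 12 to 29 reads a library. The groups overlapped (log2 fold change 0.00, SE 0.238), and against Sox2 WT replicate 1 alone the difference was -0.31. Over the 9 genes the log2 fold change was positive in 4 and negative in 5, with a median of 0.00, beside 7980 positive and 6065 negative and a median of 0.02 over all genes tested.

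Kit was at 2.55, 3.41 and 1.64 RPKM in the Sox2 WT libraries and at 2.46, 2.67 and 1.51 RPKM in the Sox2 KO libraries. The groups overlapped (log2 fold change -0.15, SE 0.262; -0.20 against Sox2 WT replicate 1 alone), and the libraries took another order than for the proteases: Sox2 WT replicate 2, lowest for Mcpt1, Mcpt2 and Tpsab1, was highest for Kit. Kit is also expressed by interstitial cells of Cajal, the pacemaker cells of gut muscle, and by melanocytes. Of the 6 Cajal cell markers in the table, 3 stayed under 0.5 RPKM in every library, and the summed level of the 6 was 19.6 to 28.9 RPKM in Sox2 WT and 26.6 to 33.8 RPKM in Sox2 KO. Nearly all of that sum was Ano1, a chloride channel also made by epithelium, at 18.2 to 32.4 RPKM; Etv1, a transcription factor of Cajal cells, was at 0.620 to 1.40 RPKM. Of the 6 melanocyte markers, 3 (Tyr, Tyrp1 and Mlana) were at 0 in all libraries. Dct did not exceed 0.0633 RPKM, whereas Sox10 was at 0.0579 to 0.421 RPKM and Pmel at 1.54 to 2.15 RPKM. Whether Cajal cells or melanocytes contributed to the Kit level was not tested.

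**Figure D2:**
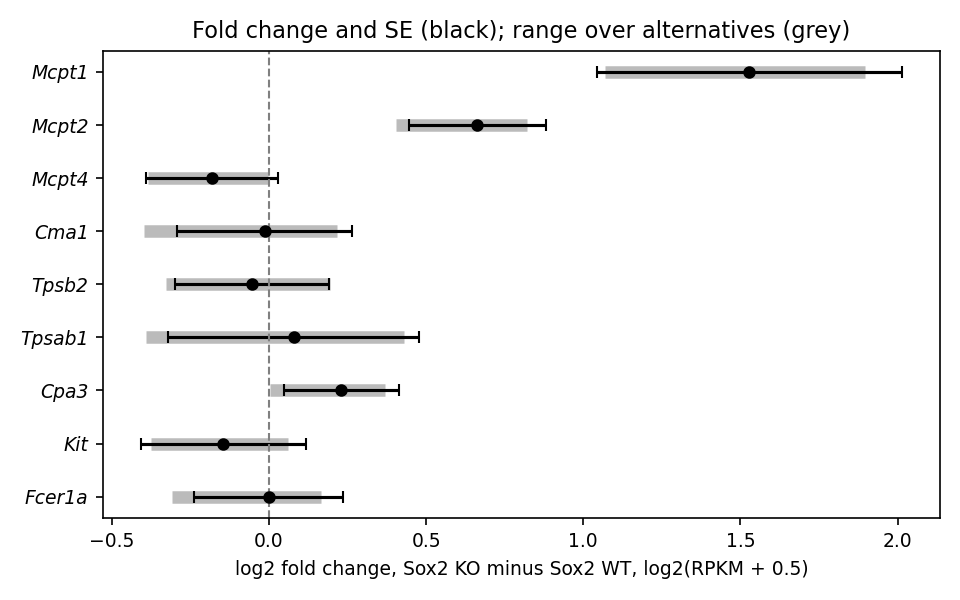
Log2 fold change of Sox2 KO over Sox2 WT for the 9 mast cell genes, from log2(RPKM + 0.5), with its SE (black), and the range over the alternative analyses (grey). Mcpt1 at 1.53 and Mcpt2 at 0.66 lie to the right of 0 in all of them. So does Cpa3, at 0.23 (SE 0.182), with a lowest value of 0.0020. The SE intervals of Mcpt4, Cma1, Tpsb2, Tpsab1, Kit and Fcer1a include 0.

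Set side by side within each library, the summed level of the 2 mucosal genes was below that of the 3 connective tissue genes in each Sox2 WT library and above it in each Sox2 KO library. The summed level of Mcpt1 and Mcpt2 was 7.97, 6.22 and 8.49 RPKM in the Sox2 WT libraries and 10.6, 23.4 and 12.3 RPKM in the Sox2 KO libraries. The summed level of Mcpt4, Cma1 and Tpsb2 was 10.4, 8.44 and 10.6 RPKM in Sox2 WT and 6.28, 11.4 and 10.6 RPKM in Sox2 KO. The mucosal sum was thus 0.764, 0.736 and 0.801 of the connective tissue sum in Sox2 WT, a narrow range, and 1.69, 2.06 and 1.16 times it in Sox2 KO. The mean ratio was 0.767 ± 0.0328 in Sox2 WT and 1.63 ± 0.452 in Sox2 KO (SD, n = 3 each). Sox2 KO replicate 1 reached its ratio with the lowest connective tissue sum of the 6 libraries. Sox2 KO replicate 2 did so with the highest mucosal sum. Which sum is the larger depends on the genes chosen, and Tpsab1 is in neither. Adding its 4.90 RPKM in Sox2 KO replicate 3 would lift the connective tissue sum of that library above the mucosal sum.

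On the log scale, the mean of Mcpt1 and Mcpt2 minus the mean of Mcpt4, Cma1 and Tpsb2 was -0.03, -0.32 and 0.11 in the Sox2 WT libraries and 1.05, 1.61 and 0.63 in the Sox2 KO libraries. The groups did not overlap, and the Sox2 KO mean of 1.10 ± 0.493 exceeded the Sox2 WT mean of -0.08 ± 0.220 by 1.18 (SD, n = 3 each). With sex as a covariate the difference was 1.13, which is that between the Sox2 KO mean and Sox2 WT replicate 1 alone. Leaving out 1 library gave a difference of 0.92 to 1.41. With Mcpt2 as the only mucosal gene it was 0.75, and with Mcpt1 as the only one 1.61. With Tpsab1 added to the connective tissue genes it was 1.14. The mean log2 level of the mucosal genes differed by 1.10 between the groups, and that of the connective tissue genes by -0.08, with overlap.

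**Figure D3:**
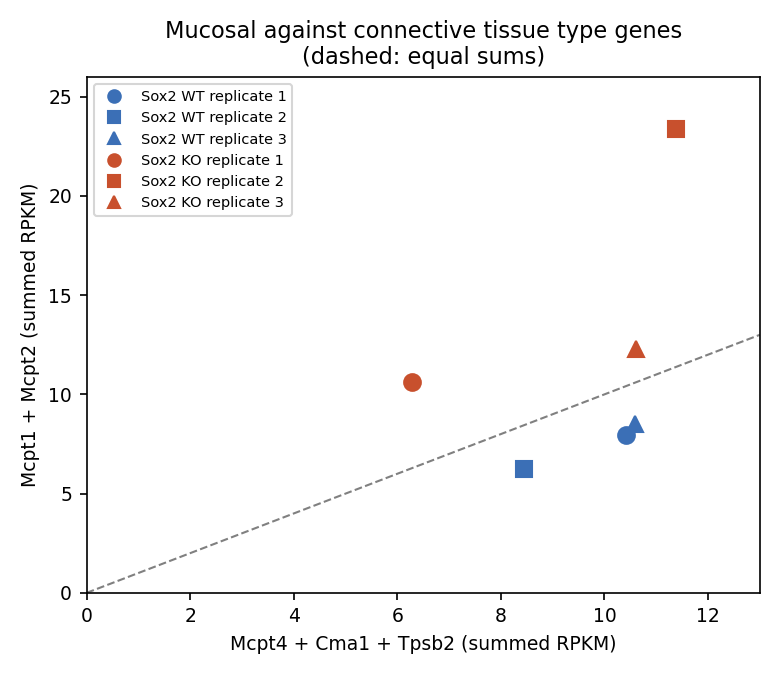
Summed RPKM of Mcpt1 and Mcpt2 against summed RPKM of Mcpt4, Cma1 and Tpsb2, 1 point for each library, with a dashed line where the sums are equal. The 3 Sox2 WT points lie under the line, at ratios of 0.736 to 0.801. The 3 Sox2 KO points lie over it, at 1.16 to 2.06. The side on which a point lies depends on the genes summed, and Tpsab1 is in neither sum.

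Levels were also set against Cpa3, a gene shared by mast cells of both types, in the same library. Mcpt1 was at 0.404, 0.137 and 0.658 of the Cpa3 level in the Sox2 WT libraries and at 0.814, 1.71 and 0.921 of it in the Sox2 KO libraries. Mcpt2 was at 1.63, 1.90 and 2.26 times the Cpa3 level in Sox2 WT and at 2.56, 2.96 and 2.32 times in Sox2 KO, so that the groups separated by a small gap. Mcpt4, at 0.861, 0.963 and 1.39 in Sox2 WT and 0.704, 0.564 and 1.08 in Sox2 KO, overlapped. So did the ratios of Cma1, Tpsb2, Tpsab1 and Kit to Cpa3. In whole tissue, fewer cells of a type and less RNA per cell cannot be told apart.

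**Figure D4:**
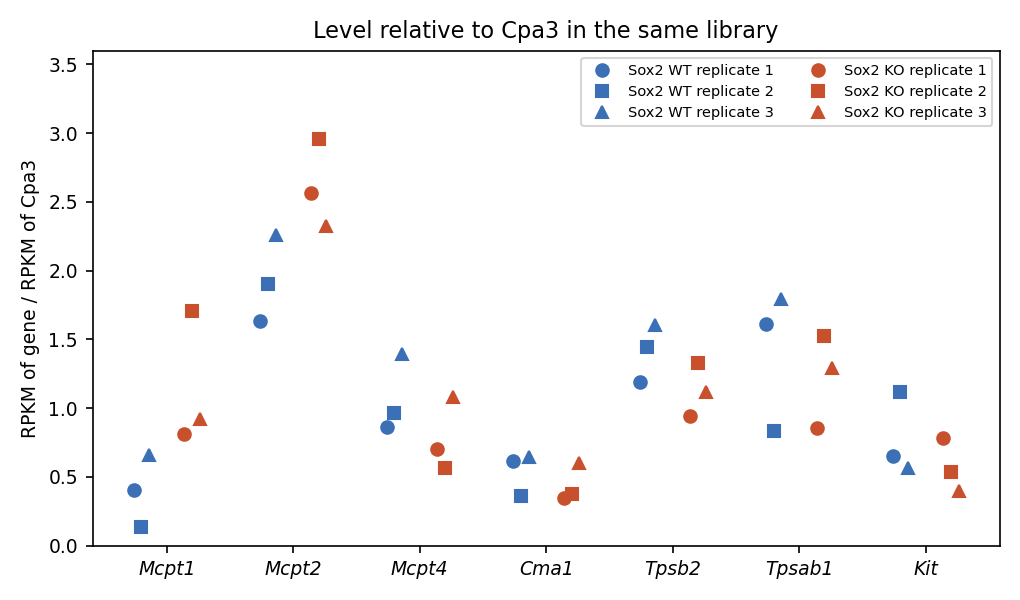
RPKM of 7 mast cell genes divided by the RPKM of Cpa3 in the same library, on a linear axis from 0, with Sox2 WT in blue and Sox2 KO in red. Mcpt1 and Mcpt2 are higher in all 3 Sox2 KO libraries, the latter with 2.26 against 2.32 at the nearest pair, and the other 5 ratios overlap.

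Among libraries, Sox2 KO replicate 2 held the highest value of 6 of the 9 genes, all except Mcpt4, Cma1 and Kit, and a summed level of 51.1 RPKM. The other 5 libraries summed to 24.1 to 33.7 RPKM. Sox2 KO replicate 1 held the lowest value of 4 genes, Mcpt4, Cma1, Tpsb2 and Fcer1a, at a sum of 25.6 RPKM. Of 8 smooth muscle markers, all 8 were tested and 0 passed. Their summed level was 432, 629 and 693 RPKM in the Sox2 KO libraries and 728, 562 and 462 RPKM in the Sox2 WT libraries. Sox2 KO replicate 1 was the lowest library in this sum and in the sum of Mcpt4, Cma1 and Tpsb2, whereas Sox2 WT replicate 3 was the second lowest in the muscle genes and, at 10.6 RPKM, among the higher libraries in those 3 genes. The part of smooth muscle carry-over in these values was not tested.

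The 4 chymase genes lie within 121 kb of chromosome 14 (mm10). Cma1 is at 55941451 to 55944675 on the minus strand, Mcpt1 at 56017971 to 56020384 and Mcpt2 at 56042041 to 56044642 on the plus strand, and Mcpt4 at 56059629 to 56062313 on the minus strand. Mcpt4 lies next to Mcpt2 in the annotation, and the 2 differed in pattern. The tryptase genes Tpsab1 (chromosome 17, 25343245 to 25345562) and Tpsb2 (25366305 to 25369098) lie within 25.9 kb. Cpa3 is on chromosome 3 (20215620 to 20242181), Kit on chromosome 5 (75574916 to 75656722) and Fcer1a on chromosome 1 (173221284 to 173227214). Apart from a microRNA gene inside Cpa3, none overlaps another annotated gene. The GENCODE transcripts of Mcpt1 and Mcpt4 were 82.2% identical over their local alignment, those of Mcpt1 and Mcpt2 77.0% and those of Tpsb2 and Tpsab1 73.0%. None of the 15 pairs among the 6 protease genes shared a stretch of 50 bases, although how reads matching more than one gene were counted is not given in the sources used here.

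Promoter sequences from RefSeq (GRCm38.p6, 250 bases before to 50 after the start site) were held for 6 of the 9 genes: Mcpt1, Mcpt4, Cma1, Cpa3, Fcer1a and Kit. Those of Mcpt1, whose values did not overlap between the groups, and of Mcpt4 and Cma1, whose values did, are shown to compare the types, 5′ to 3′ on the strand of the gene. Capitals mark a match on either strand to AGATAA or TGATAA, or else to AGATAG or TGATAG, letters bound by GATA factors such as GATA2 of mast cells. The first covers chr14:56017714-56018013 on the plus strand, the second chr14:56062261-56062560 and the third chr14:55944626-55944925, both on the minus strand.
Mcpt1: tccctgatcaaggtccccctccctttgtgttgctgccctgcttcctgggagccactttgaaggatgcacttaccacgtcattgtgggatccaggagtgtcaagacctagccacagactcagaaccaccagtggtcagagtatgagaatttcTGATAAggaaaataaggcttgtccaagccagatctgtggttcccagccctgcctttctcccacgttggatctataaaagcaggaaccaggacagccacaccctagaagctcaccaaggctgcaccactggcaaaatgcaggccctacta
Mcpt4: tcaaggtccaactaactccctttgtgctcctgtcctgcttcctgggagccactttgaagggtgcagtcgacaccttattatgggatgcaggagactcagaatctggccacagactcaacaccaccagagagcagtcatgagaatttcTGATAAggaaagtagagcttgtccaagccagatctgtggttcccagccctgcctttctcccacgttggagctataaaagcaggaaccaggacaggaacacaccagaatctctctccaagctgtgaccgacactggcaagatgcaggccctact
Cma1: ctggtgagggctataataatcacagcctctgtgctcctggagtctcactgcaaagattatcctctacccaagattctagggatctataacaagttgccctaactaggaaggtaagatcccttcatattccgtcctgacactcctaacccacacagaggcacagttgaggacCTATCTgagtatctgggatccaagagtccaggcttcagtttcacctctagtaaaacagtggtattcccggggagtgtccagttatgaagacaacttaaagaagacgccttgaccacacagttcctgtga
The promoters of Mcpt1 and Mcpt4 were 81.0% identical over a global alignment, and both held TGATAA, beginning 99 and 103 bases before the start site. Those of Mcpt1 and Cma1 were 43.3% identical. Of the 6 promoters, 5 held at least 1 of the GATA letters, all except that of Kit, beside 29.8% of the 32851 promoters in the table. TATAAA was found in 4 of the 6 and in 13.6% of all, and the E-box letters CANNTG in 4 of the 6 and in 72.3% of all. None of these motifs contains another. The 2 letter sets of Smad binding, GTCTAGAC and CAGACA, were in 0 of the 6 and in 21.2% of all. A match is a description of these windows, and the GATA match did not separate Mcpt1 from Mcpt4.

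Other mast cell proteases were near or at 0. Of the 9 listed in the table, 8 stayed under 0.5 RPKM in every library, among them Ctsg, Gzmb, Tpsg1 and Mcpt9; Cma2 and Prss34 were at 0 in all 6. Ctsc, the widely expressed protease that activates granule proteases, was at 13.2 to 18.5 RPKM in Sox2 WT and 14.8 to 20.5 RPKM in Sox2 KO (log2 fold change 0.05, SE 0.174). Mcpt8, which marks basophils, was at 0 in 4 libraries and at 0.162 and 0.173 RPKM in the last 2 Sox2 KO libraries. Of the 5 basophil markers, 4 stayed under 0.5 RPKM throughout.

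Of 24 genes of mast cell receptors and signalling, 13 were tested and 0 passed in limma, with 1, the phospholipase gene Plcg2 (log2 fold change 0.46, SE 0.125), at an unadjusted p under 0.05 (3.15% of all genes). The median log2 fold change was 0.07. The 3 with the highest levels were the tetraspanin genes Cd63 (log2 fold change 0.05, SE 0.143), found on granule membranes, and Cd9 (-0.06, SE 0.159), and the Src-family kinase gene Lyn (0.02, SE 0.135). Fcer1g, the gamma chain shared by Fc receptors, was at 4.40 to 7.49 RPKM in Sox2 WT and 3.75 to 7.30 RPKM in Sox2 KO. Ms4a2, the beta chain of the IgE receptor, did not exceed 0.183 RPKM. Mrgprb2, a receptor of connective tissue mast cells, was at 0.0689 to 0.170 RPKM in Sox2 WT and 0.0569 to 0.448 RPKM in Sox2 KO, with replicate 2 of Sox2 KO the highest. Il1rl1, the receptor for IL-33, overlapped, at 1.46 to 4.11 and 2.05 to 2.49 RPKM. Plcg2 and these last 4 were picked after their values were seen.

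Of the 13 genes of mediator synthesis and granules, all were tested and 0 passed, 7 had an unadjusted p under 0.05 in limma (3.15% of all genes tested), and 6 were higher in every Sox2 KO library than in any Sox2 WT library (4.09% of all genes). Their median log2 fold change was 0.25. The 3 with the highest levels were Serpinb1a, a protease inhibitor (log2 fold change 0.11, SE 0.256), Alox5ap, which presents arachidonic acid to 5-lipoxygenase (1.02, SE 0.201), and Ndst1, a heparan sulphate sulphotransferase (-0.15, SE 0.183). The 6 that lay above were Alox5ap and, picked here after their values were seen, Ptgs1, Alox5, Ltc4s, Hpgds and Rgs13. Alox5, the 5-lipoxygenase of leukotriene synthesis, was at 1.74, 1.68 and 2.04 RPKM in Sox2 WT and 4.16, 5.49 and 3.56 RPKM in Sox2 KO (log2 fold change 1.06, SE 0.165). These 6 genes are also expressed by tuft cells, chemosensory cells of the epithelium. Of 8 tuft cell markers chosen after the data were seen, 7 were tested, all 7 were positive, 6 lay above in every Sox2 KO library (4.09% of all genes) and 0 passed, with a median log2 fold change of 0.93. The summed level of the 8 was 102 to 184 RPKM in Sox2 WT and 148 to 190 RPKM in Sox2 KO, most of it Avil. The part of tuft cells in the levels of the 6 shared genes was not tested.

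Genes of mast cell amines and of the heparin core followed other patterns. Hdc, which makes histamine, was at 1.37, 2.97 and 0.619 RPKM in Sox2 WT and at 1.36, 2.89 and 1.45 RPKM in Sox2 KO, and Slc18a2, which loads amines into vesicles, at 1.72, 4.11 and 1.09 against 1.69, 2.06 and 1.47 RPKM. Both genes overlapped and were highest in Sox2 WT replicate 2, the library lowest for Mcpt1, and both are also made by endocrine cells of the stomach. Srgn, the proteoglycan core that holds granule proteases, overlapped as well, at 2.76 to 3.73 RPKM in Sox2 WT and 3.39 to 4.55 RPKM in Sox2 KO. Tph1, the serotonin synthesis gene of mucosal mast cells and of enterochromaffin cells, was lower in each Sox2 KO library, at 6.88 to 11.4 RPKM in Sox2 WT and 1.39 to 2.22 RPKM in Sox2 KO (limma, adjusted p 0.0501, log2 fold change -2.19). These 4 genes were picked after their values were seen.

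Tested transcription factors and growth factors of mast cells overlapped between the groups, with Kitl as the exception. Of 8 factors, 6 were tested and 0 passed, with 0 at an unadjusted p under 0.05 in limma. Runx1 (log2 fold change -0.17, SE 0.213), Lyl1 (0.12, SE 0.133) and Mitf (-0.06, SE 0.299) had the highest levels, and Gata2, which directs mast cell identity, was at 0.645 to 1.16 RPKM in Sox2 WT and 1.01 in each Sox2 KO library. Of 17 growth and induction factors, 8 were tested, 0 passed and 0 had an unadjusted p under 0.05. Kitl, stem cell factor and the ligand of Kit, was at 17.6, 22.8 and 18.7 RPKM in Sox2 WT and at 16.3, 16.7 and 14.7 RPKM in Sox2 KO, lower in each Sox2 KO library than in any Sox2 WT library (log2 fold change -0.29, SE 0.127); 2.99% of all genes tested lay below in this way. Il18 (-0.18, SE 0.277) and Itgav (-0.15, SE 0.206), a subunit of integrins that activate TGF-beta, were, with Kitl, the 3 with the highest levels, and both overlapped. The type 2 cytokine genes Il4, Il5, Il9 and Il13 were at 0.193 RPKM or less in every library and Il3 was at 0 in all 6. Tgfb1, whose product induces Mcpt1 in cultured mast cells, was at 4.35 to 5.68 RPKM in Sox2 WT and 4.29 to 5.02 RPKM in Sox2 KO; these 6 genes and Gata2 were also picked after their values were seen.

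Other leukocyte lists gave no call either. Of 6 macrophage and neutrophil markers, 4 were tested, 0 passed and the median log2 fold change was 0.03; Lyz2, Cd68 and Csf1r had the highest levels, with log2 fold changes of 0.00, 0.08 and 0.05. Of 7 T and NK cell markers, 6 stayed under 0.5 RPKM in every library. Of 6 eosinophil markers, Epx and Ear1 were at 0 throughout, and the summed level of the 6 was 1.08 to 2.20 RPKM in Sox2 WT and 2.85 to 5.98 RPKM in Sox2 KO. That sum was mostly Siglec5, the deposited symbol of the gene for Siglec-F. Siglec5 was at 0.631, 1.02 and 1.52 RPKM in Sox2 WT and 3.37, 3.96 and 2.58 RPKM in Sox2 KO. It was thus higher in every Sox2 KO library than in any Sox2 WT library, as were 4.09% of all genes tested. Ear2, Prg2 and Ccr3 overlapped between the groups, at no more than 0.983, 0.403 and 1.22 RPKM. Which cells the Siglec5 level came from was not tested, nor was the part of eosinophils in the mucosal protease levels.

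Genes whose pattern over the 6 libraries was most like that of the mucosal pair were sought among tested genes with a mean of at least 1 RPKM. Likeness was the root mean square difference, over the 6 libraries, of log2(RPKM + 0.5) values centred on each gene or profile mean, for which smaller is closer. The nearest 6 were Ccl8 (0.208), a chemokine that attracts leukocytes; the haemoglobin gene Hbb-bs (0.246); Ear11 (0.248), a ribonuclease of eosinophils and macrophages; the antibody segment Ighv8-11 (0.284); Arg1 (0.285), arginase of alternatively activated macrophages; and Spink4 (0.305), of goblet cells. Ccl8 was at 3.83, 3.02 and 6.17 RPKM in Sox2 WT and at 7.20, 12.7 and 8.76 RPKM in Sox2 KO. Hbb-bs, a sign of blood in the tissue, was at 2.64, 2.04 and 3.28 RPKM in Sox2 WT and at 3.70, 6.55 and 4.49 RPKM in Sox2 KO, and the part of blood in the protease levels was not tested. Ear11 rested on 7 to 51 reads and Ighv8-11 on 3 to 35 reads a library. Mcpt1 and Mcpt2 themselves each stood at 0.308 from their joint profile, farther than any of these 6 genes. Their distances are equal by construction, because that profile is the mean of the 2 genes. The other mast cell genes, which are not part of it, were farther still from the mucosal profile, from 0.535 for Cpa3 to 0.851 for Kit.

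For the profile of Mcpt4, Cma1 and Tpsb2, the nearest genes with at least 50 reads in each library were Hebp2 (0.0870), Padi2 (0.101), Gpr153 (0.105), Rbks (0.106) and the predicted gene Gm6877 (0.110). The other gene among the nearest 6, the microRNA gene Mir145, was the closest of them at 0.0279 but rested on 4 to 8 reads a library. Of the other mast cell genes, Fcer1a (0.180) and Cpa3 (0.245) were closest to that profile, then Tpsab1 (0.334), Mcpt2 (0.441), Kit (0.503) and Mcpt1 (0.940). Fcer1a, Cpa3, Tpsab1 and Kit were each nearer to the connective tissue profile than to the mucosal one, from which they stood at 0.594, 0.535, 0.552 and 0.851. The distance depends on the size of changes as well as their order, and the mucosal profile varied more. A gene that varies little therefore lies nearer to the connective tissue profile, and nearness alone does not show a shared pattern. These distances span 6 libraries that differ in both genotype and sex and are given as a description.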

How the data were processed

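Gene expression was measured by RNA sequencing in 3 Sox2 WT and 3 Sox2 KO pylorus samples. The authors deposited RPKM values for 39179 Ensembl identifiers. The submitters' processing notes list the tools CASAVA 1.7 and STAR and the build mm10 (per the submitters' processing notes). Not given in the sources used here is how reads were counted, with which gene models and strand setting. All 6 single-library tables equalled the series table. Whole reads were recovered from the RPKM by finding, for each gene, the smallest read numbers that give its ratios between libraries, within 1e-05 reads, which succeeded for 100% of 23538 genes above 0; common factors would be missed, so read numbers could be too low.

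A linear model was fitted to log2(RPKM + 0.5) by limma 3.58.1 (R 4.3.3; moderated, trended variances) for 14045 genes averaging 0.5 RPKM or more; of rows sharing a symbol, that with the highest mean was kept. Benjamini-Hochberg adjustment used a threshold of 0.05. The fit was checked on simulated data. Fold changes on this scale understate those of low genes. Exact Poisson intervals (95%) cover counting error only. Gene positions came from GENCODE mouse release 21 (GRCm38, which is mm10), to which 37607 identifiers matched.

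Members and gene lists were chosen with earlier results of these data known. Of each other list, genes past the threshold and the 3 with the highest mean were named, with the 6 genes nearest each profile; all other genes named from these lists, those at 0 or under 0.5 RPKM included, were picked after their values were seen. Alternatives were pseudocounts of 0.1 and 1, no filter or a mean of at least 1, median-of-ratios and quantile scaling, sex or the replicate number as a term, no variance trend, voom on recovered reads, and each library left out. The tuft cell list, and mucosal against connective differences with Tpsab1 added or with Mcpt1 or Mcpt2 left out, were chosen after seeing the data. Transcripts and promoters were aligned with Biopython.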

Additional observations from a re-analysis of the deposited data

How the results depend on the processing

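Mcpt1 and Mcpt2 kept a positive log2 fold change in all 16 alternatives, from 1.07 to 1.90 and from 0.40 to 0.82. Mcpt4 kept a negative one, from -0.38 to 0.00, and Cpa3 a positive one, from 0.00 to 0.37. Changing the filter, adding the replicate number or dropping the variance trend cannot move a fold change, so those alternatives repeat the main values. The sex term repeats the comparison with Sox2 WT replicate 1. The sign changed in 3 of 16 for Cma1, 1 of 16 for Tpsb2, 3 of 16 for Tpsab1, 2 of 16 for Kit and 4 of 15 for Fcer1a, most of them with 1 library left out. None of the 9 genes passed in any alternative. The difference of mucosal minus connective tissue genes, 1.18 in the main analysis, shifted in these alternatives by less than the SD between replicates within groups. It ranged from 1.02 with a pseudocount of 1 to 1.43 with voom, and from 0.92 to 1.41 with 1 library left out. Without Mcpt1 it was 0.75 and without Mcpt2 1.61, which are shifts larger than that SD. Both were tried after the data were seen. Under the replicate block, which leaves that difference at 1.18 by construction, 0 genes were higher and 1 lower; with sex as a covariate these were also 0 and 1. Deviations of same-numbered libraries had correlations of 0.0088, 0.0970 and -0.0740, and those of other pairs ranged from -0.1577 to 0.1648. With 3 libraries a group, these values cannot show whether same-numbered samples were paired. Of all genes tested, 2 were higher and 2 lower. The number higher was 1 without a filter, with median-of-ratios rescaling, with quantile normalization and without a variance trend, and the number lower was 5 with voom. Leaving out 1 library gave 0 to 5 higher and 1 to 4 lower. The cause of these shifts was not tested. The 3 libraries a group and 12 to 571 reads a member and library limit what could be called.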
